A study of Mus musculus with 18 samples.

Results

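The comparison described here is that of peritoneal eosinophils cultured with IFN-γ and apoptotic cells (IFN-γ + ACs) against eosinophils cultured with apoptotic cells alone (ACs). It rests on 3 libraries per group, 6 of the 18 libraries of the series, and on the 10315 of 54446 genes whose mean normalized count over those 6 libraries was at least 10. The comparison asks which transcripts IFN-γ alters in eosinophils that are already in contact with dying cells. All eosinophils came from NJ.1638 Il5Tg mice, which overexpress Il5 from a T cell promoter and hold far more eosinophils than wild-type mice, and the labels give the strain as C57BL/6. They were washed from the peritoneal cavity and enriched by removing cells that bound anti-Thy1.2 and anti-B220. In both groups they were then cultured for 18 h with 5 thymocytes per eosinophil. The thymocytes came from wild-type mice and had been killed with dexamethasone. Eosinophils were recovered with anti-Siglec-F beads before RNA was extracted. The age of the eosinophil donors and the dose of IFN-γ are not given in the sources used here. The study says that each lane of its heat plots of eosinophils with ACs came from a different mouse. Which of the ACs libraries of the series those plots show is not said. For the IFN-γ libraries the sources speak of biological replicates without saying that each came from a separate mouse. The p-values therefore measure the spread between these libraries, part of which may be technical. A further pair of groups, E. coli + ACs and the combination IFN-γ + E. coli + ACs, each of 3 libraries, was used to ask how the response to IFN-γ compared in the presence of bacteria. The study describes the combination as IFN-γ followed by E. coli. Wording such as "with E. coli" or "in the presence of E. coli" below names the groups compared and not the order of the stimuli.

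IFN-γ is the signature cytokine of Type 1 immunity. It binds a receptor made of IFNGR1 and IFNGR2, whose kinases JAK1 and JAK2 phosphorylate transcription factors of the STAT family. These bind GAS elements in promoters and induce IRF1 and other interferon regulatory factors, which act through ISRE elements on further genes. Genes known to respond in myeloid cells include guanylate-binding proteins, antigen presentation genes, the chemokines that bind CXCR3 and inducible nitric oxide synthase. Eosinophils are granulocytes that depend on IL-5 and are best known from Type 2 immunity.

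The labelled cell type was checked against defining markers before any result. The eosinophil markers Ccr3, Siglecf and Il5ra were abundant in all 6 libraries, whereas the granule protein transcripts were scarce, with a mean of 82.6 normalized counts of Prg2 with ACs and with Epx and Prg3 too low to be tested. Markers of other cells were also measured. The summed level of the 12 macrophage markers ranged from 10333 to 13119 normalized counts with ACs and from 18039 to 21652 with IFN-γ + ACs, and that of the 9 eosinophil markers from 7604 to 8001 and from 4859 to 5680. Of the macrophage markers, 4 rose (Marco, Mertk, Timd4 and Lyz2), 1 fell (Vsig4), and 7 did not pass the test, among them Csf1r, Gata6, Adgre1, Cd5l, C1qa and Fcgr1. The higher sum came largely from Lyz2, with means of 5010 and 9610, and Marco, with means of 707 and 3155. The median log2 fold change of the 12 markers was 0.29. The B cell markers summed to between 902 and 1045 with ACs and between 104 and 183 with IFN-γ + ACs, mostly from Ighm. The thymocyte and T cell markers summed to at most 213 in any of the 6 libraries. Neutrophil markers ranged from 2153 to 2434 and from 2251 to 2715, with rises of S100a8 and Ly6g and a fall of Mmp8 among 5 tested. The mast cell and basophil markers summed to at most 67.6, with a rise of Cpa3 (2.75 in log2 fold change), the dendritic cell markers to at most 61.6 and the mesothelial cell and fibroblast markers to at most 88.6. NK cell markers reached at most 4.1, with Gzma, Eomes, Klrb1c, Klre1 and Ncr1 at 0 in all 6 libraries. Transcripts of the mitochondrial genome took 10.9 to 11.9% of the normalized counts with ACs and 8.36 to 9.47% with IFN-γ + ACs. Their summed normalized counts overlapped between the groups. In bulk RNA, fewer cells of a type and less RNA per cell cannot be told apart, and what these shifts contribute to the results was not tested. Reads counted on genes numbered 4234312 to 4844424 with ACs and 2216917 to 4090386 with IFN-γ + ACs. The shallowest library was replicate 3 of IFN-γ + ACs, in which 3 reads stand for a normalized count of 6.16.

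With IFN-γ, 1163 transcripts (11.3% of those tested) were higher and 1037 (10.1%) lower, where the Benjamini-Hochberg adjusted p of limma had to be under 0.05 and the change 1.5-fold or more. The verbs rose and fell are used only for transcripts past this threshold, and fold changes are on the scale of log2(normalized count + 1). The rises reached further than the falls. At least 8-fold rises were seen for 68 transcripts and at least 8-fold falls for 41, and at least 16-fold for 24 and 10. Over all tested genes the median log2 fold change was -0.01. The shares of 11.3% and 10.1% are the ones to set beside the counts of each gene list below. Of the 36 lists, 29 had a share of rises above the first and 18 a share of falls above the second. The lists were chosen with earlier results of these data known, so this tally is only a description. Without the shallow replicate 3 of IFN-γ + ACs the counts were 1110 and 936. The 3 libraries of each group did not overlap for 2310 tested genes in the higher direction (22.4%) and for 2117 in the lower one (20.5%). Among the called transcripts, 1145 of the 1163 rises and 1011 of the 1037 falls were without overlap. A mean under 10 with ACs was seen for 108 of the rises, and a mean under 10 with IFN-γ + ACs for 142 of the falls, so these passed the filter on low values only through the group in which they were high.

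**Figure D1:**
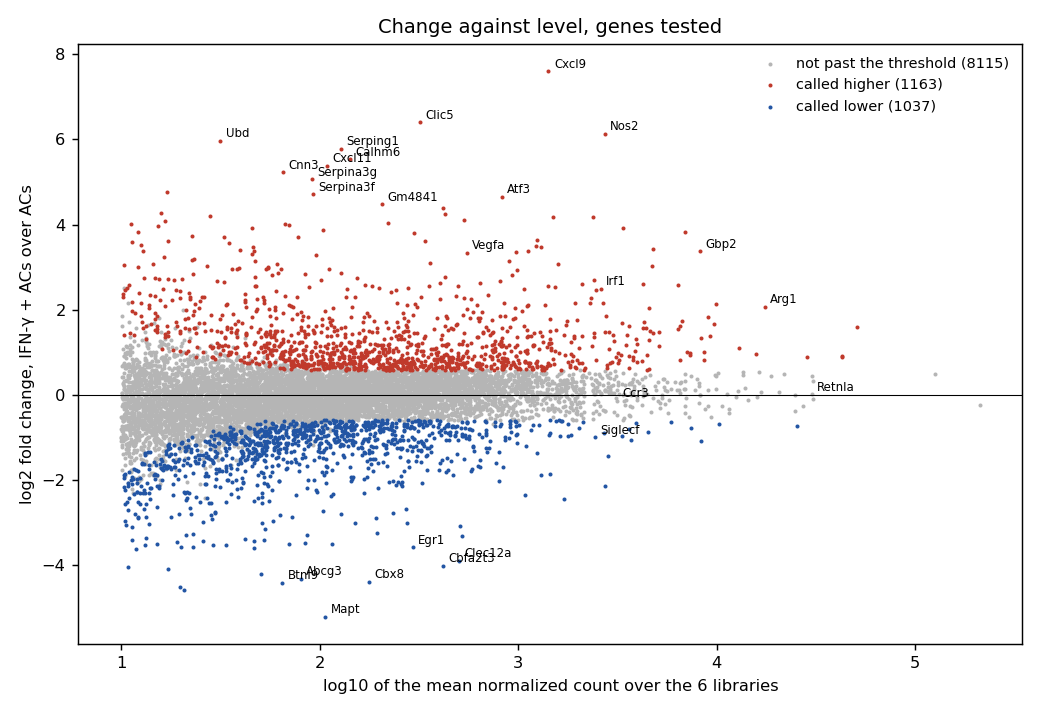
Log2 fold change of IFN-γ + ACs over ACs (y) against the log10 mean normalized count over the 6 libraries (x), 1 point per tested gene, with 1163 called higher in red and 1037 called lower in blue. Cxcl9, at a log2 fold change of 7.60, stands highest, and Mapt, at -5.20, lowest, although Btnl9 fell further than Mapt with edgeR, with DESeq2 and without replicate 3 of IFN-γ + ACs.

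The largest rises were led by Cxcl9 (ENSMUSG00000029417.9, chr5:92321347-92328079, GRCm38), a chemokine that attracts T cells through CXCR3. Cxcl9 was at 13.8, 23.5 and 7.34 normalized counts in the ACs libraries and at 2476, 3268 and 2723 with IFN-γ + ACs, or 7.60 in log2 fold change (SE 0.31, limma adjusted p = 1.2e-12). The groups were far apart, with no overlap. Clic5 (chr17:44188584-44280172), which encodes a chloride intracellular channel protein, was at 4.88, 12.2 and 4.08 and at 464, 658 and 769.5 (log2 fold change 6.40, limma adjusted p = 1.3e-11). Nos2 (chr11:78920787-78960254), the inducible nitric oxide synthase, went from 73.2, 99.5 and 57.1 to 5408, 6298 and 4383 (log2 fold change 6.13, limma adjusted p = 2.2e-14). Ubd, the ubiquitin-like modifier FAT10, had no read in any ACs library and 47.5, 65.3 and 75.9 normalized counts with IFN-γ + ACs. Taking 3 reads per library as the floor, which is at most 2.82 normalized counts there, the mean of 62.9 was at least 22.3-fold higher. Serping1, the C1 inhibitor of complement, was at 4.88, 2.82 and 3.26 and at 249, 279.7 and 224. Calhm6, of the calcium homeostasis modulator family, was at 3.25, 7.51 and 4.89 and at 226, 300.3 and 308. In each of these genes the lowest IFN-γ + ACs library stood far above the highest ACs library. Cxcl11, the third of the CXCR3 chemokines with Cxcl10, rose by 5.37 on the log2 scale, although the annotation lists it as a polymorphic pseudogene and C57BL/6 mice are known to make no functional protein from it. The remaining rises among the 12 largest were Cnn3 (5.23), an actin-binding calponin, the serine protease inhibitors Serpina3g (5.06) and Serpina3f (4.72), the stress-induced transcription factor Atf3 (4.65) and the immunity-related GTPase Gm4841 (4.48). Serpina3g and Serpina3f are close paralogs in 1 cluster on chromosome 12, and how reads fell between them depends on the authors' counting of unique alignments. Clic5, Ubd, Serping1, Calhm6, Cxcl11, Cnn3, Serpina3g and Serpina3f had a mean under 10 with ACs. They passed the filter on low values only through the IFN-γ + ACs libraries.

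Promoter sequences are shown for the 6 largest rises that have one in the RefSeq tables of GRCm38.p6, because STAT factors and the interferon regulatory factors act at GAS and ISRE elements near gene starts. Of the 12 largest rises, 8 had a promoter there. Each line holds the 250 bases before the start site on the gene's strand, 5′ to 3′, in lower case. Capitals mark a GAS match (TTCNNNGAA) or an ISRE core match (GAAANNGAA), searched on both strands, where the letters of the 2 motifs may overlap.
Cxcl9, chr5:92328080-92328329, minus strand: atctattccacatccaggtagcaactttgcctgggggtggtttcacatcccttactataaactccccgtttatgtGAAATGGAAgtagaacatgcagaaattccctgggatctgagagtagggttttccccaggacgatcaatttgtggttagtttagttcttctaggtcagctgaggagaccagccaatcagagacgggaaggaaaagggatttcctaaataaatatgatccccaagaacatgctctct
Clic5, chr17:44188322-44188571, plus strand: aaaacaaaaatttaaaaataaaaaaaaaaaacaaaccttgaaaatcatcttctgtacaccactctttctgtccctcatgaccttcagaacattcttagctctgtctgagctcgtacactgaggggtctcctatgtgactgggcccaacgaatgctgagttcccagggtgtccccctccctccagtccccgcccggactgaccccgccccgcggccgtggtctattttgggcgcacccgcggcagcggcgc
Ubd, chr17:37193642-37193891, plus strand: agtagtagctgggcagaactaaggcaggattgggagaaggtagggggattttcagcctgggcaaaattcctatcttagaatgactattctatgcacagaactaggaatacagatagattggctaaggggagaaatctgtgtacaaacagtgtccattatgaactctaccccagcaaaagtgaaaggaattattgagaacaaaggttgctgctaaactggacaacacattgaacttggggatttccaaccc
Calhm6, chr10:34127973-34128222, minus strand: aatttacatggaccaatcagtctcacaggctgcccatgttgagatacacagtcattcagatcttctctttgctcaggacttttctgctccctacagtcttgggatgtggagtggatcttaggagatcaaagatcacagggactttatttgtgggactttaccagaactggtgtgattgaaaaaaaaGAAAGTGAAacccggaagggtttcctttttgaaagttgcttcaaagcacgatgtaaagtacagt
Cnn3, chr3:121426291-121426540, plus strand: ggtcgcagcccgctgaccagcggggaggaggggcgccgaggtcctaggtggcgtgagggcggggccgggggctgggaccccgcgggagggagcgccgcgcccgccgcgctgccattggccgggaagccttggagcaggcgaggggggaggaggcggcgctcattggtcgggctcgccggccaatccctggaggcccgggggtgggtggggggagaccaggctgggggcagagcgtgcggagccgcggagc
Serpina3g, chr12:104235897-104236146, plus strand: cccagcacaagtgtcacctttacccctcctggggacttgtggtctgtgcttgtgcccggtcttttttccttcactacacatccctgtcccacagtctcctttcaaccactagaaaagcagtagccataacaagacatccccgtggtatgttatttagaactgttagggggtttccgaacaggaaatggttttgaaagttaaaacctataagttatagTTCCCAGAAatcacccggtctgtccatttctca

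Matches stood in 3 of these 6. In Cxcl9 the ISRE core letters GAAATGGAA began 175 bases before the start, in Calhm6 GAAAGTGAA began 64 bases before it, and in Serpina3g the GAS letters TTCCCAGAA began 33 bases before it. The Clic5, Ubd and Cnn3 windows did not hold these letters. Over the whole 300-base windows, which add 50 bases after the start, the ISRE core was found in 125 of 1179 windows of called rises (10.6%), 70 of 1038 of called falls (6.74%), 787 of 10136 of tested genes (7.76%) and 2812 of all 32851 windows (8.56%). The GAS letters were found in 6.96% of the windows of rises, 7.13% of those of falls, 6.75% of those of tested genes and 8.30% of all. The windows of rises came from 910 genes and those of falls from 804 genes that matched by symbol. These shares describe letters within a fixed window and were not tested.

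**Figure D2:**
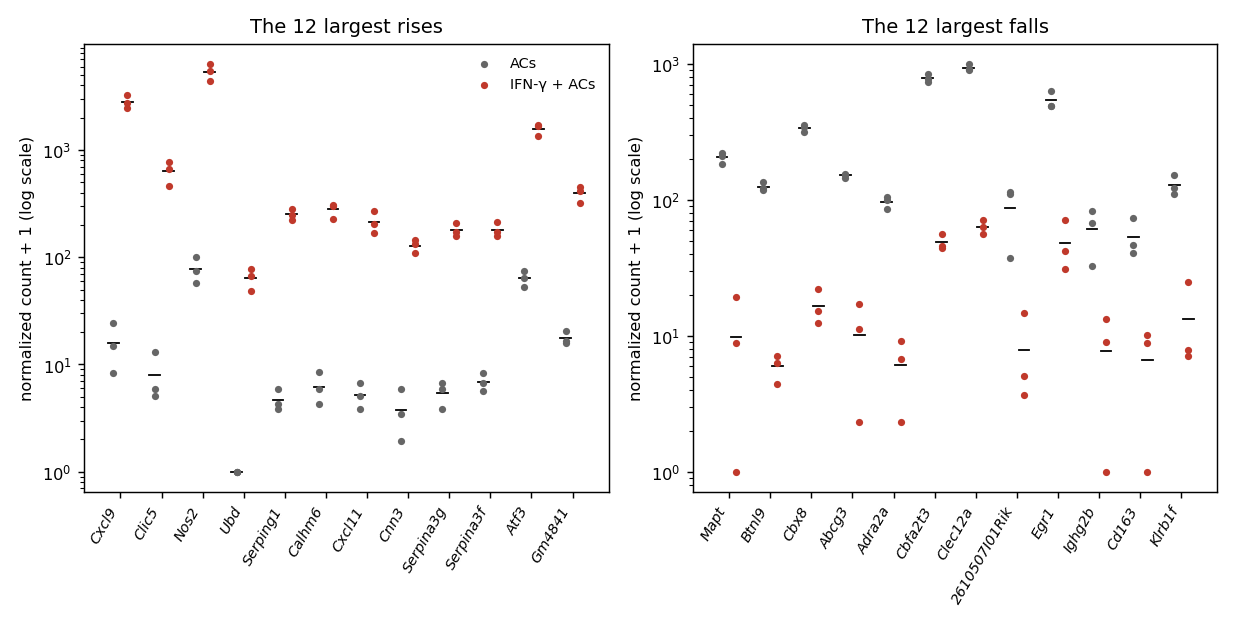
Normalized count + 1 (log scale) in each of the 3 ACs libraries (grey) and 3 IFN-γ + ACs libraries (red) for the 12 largest rises (left) and 12 largest falls (right), with the mean of each group as a black line. The 24 genes were chosen among called genes whose groups do not overlap, so the lack of overlap is not a result. Ubd is at 0 in all ACs libraries.

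The largest falls spanned cytoskeletal, chromatin, receptor and transporter genes. Mapt (chr11:104231390-104332090), the microtubule-associated protein tau, was at 182, 221 and 210.4 normalized counts with ACs and at 7.91, 18.3 and 0 with IFN-γ + ACs, or -5.20 in log2 fold change (SE 0.65, limma adjusted p = 5.9e-06). The Mapt value rests on the 0 in the shallow replicate 3 of IFN-γ + ACs. It was -3.97 without that library, -6.10 without replicate 2 of IFN-γ + ACs, -4.34 with edgeR and -4.36 with DESeq2. Btnl9, a butyrophilin-like surface protein, was at 117, 134 and 121 and at 5.28, 3.44 and 6.16. Cbx8, a subunit of Polycomb repressive complex 1, was at 342, 317 and 359 and at 21.1, 11.5 and 14.4. The ACs libraries lay close together for each of these, and no IFN-γ + ACs library exceeded 21.1 normalized counts. Abcg3, an ABC transporter, was at 155, 145 and 153 and at 1.32, 16.1 and 10.3, and Adra2a, an adrenergic receptor, at 99.2, 85.4 and 104 and at 1.32, 5.73 and 8.21. Cbfa2t3, a corepressor of the haematopoietic ETO family, was at 844, 778 and 736 and at 43.5, 44.7 and 55.4 (log2 fold change -4.02, limma adjusted p = 1.2e-12). Clec12a, an inhibitory lectin receptor that senses dead cells through uric acid crystals, was at 908, 997 and 914 and at 62, 69.9 and 55.4 (log2 fold change -3.90, limma adjusted p = 2.5e-12). These last 2 were well-expressed transcripts that fell to a small remnant. The other falls were 2610507I01Rik (-3.59), the immediate early transcription factor Egr1 (-3.58), the immunoglobulin gene Ighg2b (-3.53), the scavenger receptor Cd163 (-3.53) and the lectin-like receptor gene Klrb1f (-3.51). Mapt, Btnl9, Abcg3, Adra2a, 2610507I01Rik, Ighg2b and Cd163 had a mean under 10 with IFN-γ + ACs and passed the filter only through the ACs libraries. Single IFN-γ + ACs libraries moved several of these low remnants. Without replicate 1 the value was -3.45 for Abcg3, -3.62 for Adra2a and -2.38 for Ighg2b, without replicate 2 it was -4.18 for 2610507I01Rik and -4.12 for Cd163, and without replicate 3 it was -4.25 for Ighg2b and -2.45 for Cd163. Ighg2b, which moved together with the B cell markers, lost its call without replicate 1 or 2 of ACs, without replicate 1 of IFN-γ + ACs, with DESeq2 and with no filter on low values.

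Genes of the signalling route itself moved by moderate amounts. Of 21 tested members of the IFN-γ receptor, JAK-STAT and feedback list, 5 rose and 2 fell (23.8% and 9.52%). Socs1, the feedback inhibitor of JAK kinases, was at 2752, 2622 and 2721 and at 7376, 7869 and 7295 (log2 fold change 1.48), and Stat3 rose as well (1.08). The groups were fully apart for both. Of the receptor chains, Ifngr2 was at -0.17 in log2 fold change (limma adjusted p = 0.48) and Ifngr1 fell by a little over the threshold (-0.60). The Ifngr1 call was lost with a pseudocount of 5 and without any 1 of 4 of the 6 libraries. Jak2 was at -0.09 (limma adjusted p = 0.64).

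Interferon regulatory factors and their cofactors rose in 6 of 12 tested, and 1 fell. Irf1, a primary target of the pathway, was at 791, 823 and 736 with ACs and at 4639, 4445 and 4158 with IFN-γ + ACs (log2 fold change 2.49, SE 0.12, limma adjusted p = 7.2e-12). Irf8, a myeloid lineage and interferon-inducible factor, was at 111, 118 and 78.3 and at 485, 698 and 646. Ciita, the master regulator of MHC class II, was all but absent with ACs, at 0, 0 and 3.26, and was at 23.7, 37.8 and 30.8 with IFN-γ (log2 fold change 4.27, or 4.97 without replicate 3 of ACs). Batf2 rose by a log2 fold change of 3.01 and Nlrc5, the class I counterpart of Ciita, by 1.80. Batf3, a factor of dendritic cell development, fell (-1.35) although its libraries overlapped, at 25.2, 31.9 and 35.1 and at 7.91, 28.7 and 6.16.

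Guanylate-binding proteins (GBPs) and immunity-related GTPases (IRGs), which disrupt the vacuoles of intracellular pathogens, rose almost throughout. Of 10 tested GBPs, 9 rose and none fell, with a median log2 fold change of 2.83 against -0.01 over all tested genes, and all 9 tested IRGs rose, with a median of 2.29. Gbp2 was the most abundant of them with IFN-γ, at 13553, 16352 and 15048 normalized counts, against 1562, 1443 and 1339 with ACs (log2 fold change 3.37, limma adjusted p = 5.2e-14). Gbp5, known to promote inflammasome assembly, was at 37.4, 12.2 and 31 and at 417, 401 and 419. Gbp11 and Gbp4 rose by 3.72 and 3.63, where Gbp11 was at 3.06 without replicate 1 of ACs. The annotation lists Gbp11 as a polymorphic pseudogene. Among the IRGs, Iigp1 was at 264, 282 and 202 and at 3922, 4922 and 4714, Igtp rose by 2.70 and the regulatory Irgm1 by 1.10. Gbp2b was the tested GBP that missed the threshold, at low counts. Members of both families are close copies of each other, and Tgtp1, Tgtp2 and Irgc1 were too low to be tested.

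Antigen presentation rose in both classes. For MHC class II, which presents antigen to CD4+ T cells, 9 of 10 tested members rose and none fell (median log2 fold change 1.95). H2-Aa was at 322, 295 and 307 and at 1459, 1527 and 1172 (log2 fold change 2.16, limma adjusted p = 5.7e-09), and H2-Ab1 at 468, 449.5 and 432 and at 2504, 2903 and 2409. The peptide-loading chaperone gene H2-DMa rose by 2.69 and the invariant chain Cd74 by 1.88. H2-Oa, an inhibitor of that loading, was at -1.09 (limma adjusted p = 0.077). For MHC class I and the immunoproteasome, 16 of 22 tested members rose and none fell (median 0.86). B2m, the light chain of class I molecules, was at 27891, 35126 and 26675 and at 53424, 63540 and 50336, and the immunoproteasome subunit Psmb9 rose by 1.35. Among the others, Tapbpl rose by 1.71, the proteasome activator Psme2 by 1.57 and the peptide transporter Tap1 by 1.13. In the same libraries the macrophage markers summed to more, largely through Lyz2 and Marco, and the B cell markers to less. Both cell types express class II, and their part in these values was not tested.

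Chemokines moved both ways, with 12 of 25 tested rising and 4 falling. Besides Cxcl9 and Cxcl11, Cxcl10 was at 207, 133 and 134 and at 2447, 2649 and 3448 (log2 fold change 4.18, limma adjusted p = 1.6e-12). Ccl5, which attracts T cells and eosinophils, was at 2413, 2156 and 1782 and at 6070.2, 7548 and 5438. The 4 falls were Cxcl13 (-1.43), which attracts B cells, Ccl6 (-0.67), Ccl9 (-0.63) and Pf4 (-0.60). Cxcl13 alone was at 4631, 4143 and 3641 with ACs and at 1297, 1528 and 1810 with IFN-γ + ACs. The chemokines that attract lymphocytes through CXCR3 were thus all among the rises.

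Cytokines and their antagonists rose in 10 of 19 tested and fell in 2. Mif was at 229, 267 and 199 and at 1671, 1644 and 1541 (log2 fold change 2.81, limma adjusted p = 1.1e-11), and Il18bp, the decoy receptor for IL-18 and a known brake on IFN-γ induction, at 234, 246 and 207 and at 1115, 1063 and 839. The death ligand Tnfsf10 (TRAIL) rose by 1.83, the costimulatory ligand Tnfsf9 by 1.62 and the regulatory cytokine Il10 by 1.46. The classical inflammatory cytokines were low in both groups. Il1b was at 3.25, 12.2 and 8.97 and at 7.91, 10.3 and 22.6, Tnf at 7.32, 11.3 and 9.79 and at 21.1, 14.9 and 10.3, and Il6 at 29.3, 35.7 and 34.3 and at 27.7, 34.4 and 30.8. None of these 3 passed the test, with adjusted p of 0.23, 0.22 and 0.84 from limma, and each overlapped between the groups. The falls were Il16 (-1.20) and Il5 (-0.84), of which Il5 is also the transgene of these mice. Ifng was at 0 in all 6 libraries.

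Enzymes of nitric oxide, arginine, itaconate and tryptophan metabolism rose in 7 of 9 tested and fell in 1. Acod1, which makes itaconate, was at 61, 60.1 and 51.4 and at 844, 1004 and 1172 (log2 fold change 4.10, limma adjusted p = 8.3e-13). Ido1, which degrades tryptophan, was at 2.44, 14.1 and 9.79 and at 109, 131 and 154 (log2 fold change 3.99, or 3.36 without replicate 1 of ACs). Together with Nos2 these were the 3 largest changes of the list. Arg2, the mitochondrial arginase, went the other way (-2.16) at low counts. Arg1, the cytosolic arginase usually listed with alternative activation, was at 6993, 7065 and 6089.7 and at 24549, 30994 and 28961, and it is named here after its values were seen.

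Among PD-1 ligands and costimulatory molecules, 4 of 9 tested rose and 1 fell. Cd274, which encodes the inhibitory ligand PD-L1, was at 185, 195 and 161 with ACs and at 1394, 1740 and 1709 with IFN-γ + ACs (log2 fold change 3.15, SE 0.13, limma adjusted p = 1.3e-12). Cd40 was at 284, 240.3 and 174 and at 604, 828 and 614, and Cd86 at 156, 134 and 142 and at 334, 434 and 472. All 3 were without overlap. Vsir, an inhibitory receptor of T cell activation, was the member that fell (-0.59).

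The antiviral interferon-stimulated genes rose in a smaller share, 12 of 36 tested, with 1 fall and a median log2 fold change of 0.24. Ifitm1, which restricts virus entry, was at 201, 272 and 179 and at 2635, 2427 and 2077 (log2 fold change 3.46, limma adjusted p = 1.3e-12), Ifit2 rose by 2.48 and the ubiquitin-like Isg15 by 1.39. Ifit3 rose by 0.63, a call that was lost with upper quartile scaling and without replicate 3 of ACs. Ifitm6, of the same family and cluster as Ifitm1, fell from 141, 180.2 and 140.3 to 23.7, 10.3 and 8.21 (log2 fold change -3.49). In the Ifi200, inflammasome and lytic death list 14 of 18 tested members rose and none fell (median 0.95). Casp1, the inflammasome protease, was at 511, 592 and 461 and at 1443, 1758 and 1617, Ifi205 rose by 1.56 and the sensor Nlrp3 by 1.51. Gsdmd, which forms the pore of pyroptosis, rose by 0.62, and its call was lost with upper quartile scaling and without replicate 2 of IFN-γ + ACs. Of the PARP, Schlafen and TRIM families 8 of 25 rose and none fell, led by Trim30c (1.96), Parp10 (1.82) and Parp14 (0.92).

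Genes that mark the eosinophil itself leaned the other way. Of 20 tested eosinophil receptors and surface proteins, 1 rose and 6 fell. Siglecf, the lectin used to recover the cells, was at 3169, 3175 and 3367 and at 1702, 1514 and 1675 (log2 fold change -0.99, limma adjusted p = 5.6e-07). Il5ra, the specific chain of the IL-5 receptor, was at 388, 443 and 455 and at 248, 248 and 291, and the paired receptor gene Pira2 fell by 1.07 on the log2 scale. The eotaxin receptor gene Ccr3 was at 3211, 3228 and 3385 and at 3023, 2623 and 3275, overlapping, which was -0.15 in log2 fold change (limma adjusted p = 0.36). The rise was that of the tetraspanin Cd9, at 452, 590.3 and 479.6 and at 2237, 1933 and 2454. Granule proteins and ribonucleases were few, with 1 rise and 2 falls among 6 tested. Prg2, the major basic protein, was at 90.3, 81.7 and 75.9 and at 59.4, 107 and 57.5 (limma adjusted p = 0.55). Rnase2a rose (1.06) and Rnase12 fell (-2.23), both at low counts and both lost without any 1 of 3 libraries, and the family consists of close copies.

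Of the 15 tested transcription factors of the eosinophil lineage, 6 fell (40.0%) and none rose. Id1 was at 479.8, 446 and 471 and at 173, 233 and 205 (log2 fold change -1.20, limma adjusted p = 5.1e-05), Lyl1 fell by 1.09 and Ikzf1 by 1.06 on the log2 scale. Cebpe, needed for terminal granulocyte maturation, was at 612, 532 and 594 and at 332, 349.6 and 353. Gata1, the defining factor of the lineage, was at 858, 833 and 808 and at 908, 614 and 591 (log2 fold change -0.27, limma adjusted p = 0.18). Its level in replicate 1 of IFN-γ + ACs was above all 3 ACs libraries and in the other two below them.

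Genes of alternative activation rose more often than all tested genes, and their share of falls was near that of all. Of 16 tested in the Type 2 list 6 rose (37.5%) and 2 fell (12.5%), beside 11.3% and 10.1% over all tested genes. Retnla, one of the most abundant transcripts of all 6 libraries, was at 29367, 33575 and 26657 and at 28229, 26489 and 36341, or 0.02 in log2 fold change (limma adjusted p = 0.95). Chil3 was at 2852, 2579 and 2189 and at 4898, 5794 and 4866 (1.03), and Clec10a at -0.02 (limma adjusted p = 0.99). The mannose receptor gene Mrc1 fell from 97.6, 134 and 94.6 to 5.28, 32.1 and 16.4 (log2 fold change -2.82, or -2.18 without replicate 1 of IFN-γ + ACs), and the scavenger receptor Cd163 from 45.5, 72.3 and 40.0 to 7.91, 9.17 and 0. The rises of this list included Serpina3g. The 2 falls were the macrophage receptors Mrc1 and Cd163, while the summed macrophage markers were higher, largely through Lyz2 and Marco.

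Growth, angiogenic and repair factors rose in 8 of 15 tested and fell in 2. Vegfa, the main angiogenic growth factor, was at 66.7, 158 and 84 and at 840.2, 846 and 1303 (log2 fold change 3.33, limma adjusted p = 3.9e-09). Thbs1, an activator of TGF-β, was at 821, 1311 and 847 and at 4158, 4018 and 4849 (2.16). The falls were Tgfbi, a matrix protein induced by TGF-β, at 2127, 1844 and 2180 and at 685, 505 and 482, and the annexin gene Anxa1 (-1.98).

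Receptors for microbes and for dying cells changed in both directions. Of 21 tested Toll-like and other pattern receptors 7 rose (33.3%) and 4 fell (19.0%). Clec4n (dectin-2), which binds fungal mannans, was at 61.8, 50.7 and 40.0 and at 589.6, 616 and 681, Clec4e (mincle) rose by 2.11, and Clec12a led the falls. Tlr4 had a log2 fold change of 0.28 and Cd14 of 0.29, with adjusted p of 0.46 and 0.086 from limma. Scavenger and efferocytosis receptors and lipid efflux genes rose in 8 of 26 tested (30.8%) and fell in 4 (15.4%). The TAM receptors, which bind phosphatidylserine bridges on dying cells, rose, with Mertk at 294, 221 and 245 and at 702, 956 and 1019.9 and Axl at 305, 267 and 273 and at 707, 838 and 794. Marco rose by 2.17 and the cholesterol exporter Abca1 by 1.48. The falls were Itgb3 (-1.44), the bridging proteins Mfge8 (-1.06) and Pros1 (-0.95), and Cd93 (-0.71). Marco and Mertk are also macrophage markers and are themselves part of the sum that was higher in the same libraries. Fc receptors gave 1 rise and 2 falls among 7 tested, with Fcgr4 at 1.12, Fcgr1 at 0.08 (limma adjusted p = 0.74) and the B cell gene Fcrla at -3.63 (-4.51 without replicate 1 of IFN-γ + ACs), beside lower summed B cell markers. Of 15 complement genes 5 rose (33.3%) and 2 fell (13.3%, beside 10.1% over all tested genes). After Serping1, C3 rose by 2.03 and Cfb by 1.12, and the falls were the membrane regulators Cd55 (-1.22) and Cd59a (-1.24). The Fcgr2b fall (-0.59) and that of Cd59a were each lost in several alternatives.

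**Figure D3:**
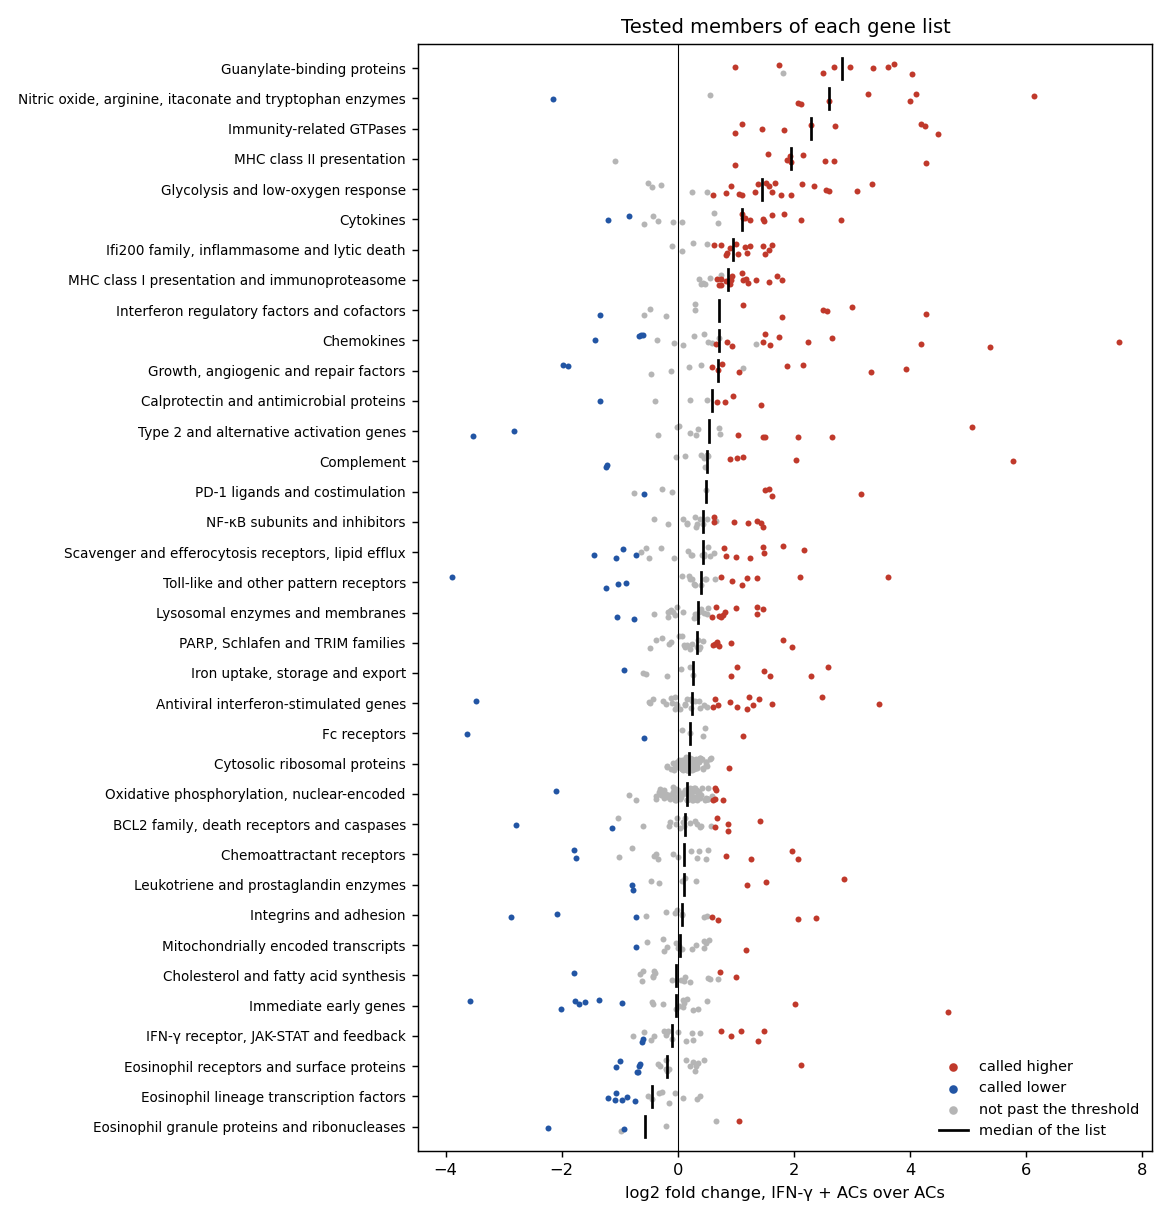
Log2 fold change of IFN-γ + ACs over ACs (x) for every tested member of the 36 gene lists (y), with called rises in red, called falls in blue, others in grey and the list median as a black bar, ordered by median. Guanylate-binding proteins have the highest median, 2.83, and eosinophil granule proteins and ribonucleases the lowest, -0.57.

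Lipid mediator enzymes and adhesion genes showed a few large shifts. Of 10 tested leukotriene and prostaglandin enzymes 3 rose and 2 fell. Ptgs2 (COX-2) was at 20.3, 42.2 and 27.7 and at 168, 183 and 324, the prostaglandin E synthase gene Ptges rose by 1.53 and Pla2g4a, which frees arachidonic acid, by 1.19. Alox15, an abundant eosinophil lipoxygenase, was at 9831, 8639.6 and 9753 and at 5772, 5145 and 5450.4 and fell, as did Alox5 (-0.77). Chemoattractant receptors rose in 4 of 18 (22.2%) and fell in 2 (11.1%, close to the share over all genes). Ccrl2 was at 2.06, Fpr2 at 1.97 and the prostaglandin E2 receptor gene Ptger2 at -1.79. Cxcr4 was at 3285, 4142 and 3615 and at 3927, 3487 and 3622 (limma adjusted p = 0.99). Among 15 integrin and adhesion genes 4 rose and 3 fell. Vcam1 and Icam1 rose by 2.38 and 2.08, and the collagen-binding integrin gene Itga2 (-2.87) and Itgb8, whose product activates TGF-β, (-2.08) fell.

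Immediate early genes fell more often than they rose, with 2 of 21 rising (9.52%) and 7 falling (33.3%). Atf3 was at 51.2, 73.2 and 62.8 and at 1359, 1685 and 1716, and Fosl1 rose by 2.01. Egr1 was at 494, 494 and 637 and at 69.9, 29.8 and 41, and Fos at 2201, 2060 and 2165 and at 1279.5, 861 and 1205. Junb (-1.37) and Klf2 (-2.01) were among the other falls. NF-κB subunits and inhibitors rose in 7 of 19 and fell in none, led by Tnip3 (1.47), Traf1 (1.43) and Ikbkg (1.37), of which the Tnip3 call was lost in several alternatives. Nfkbia was at 0.34, short of 1.5-fold, and Nfkb2 at 0.43 (limma adjusted p = 0.18). In the BCL2 family, death receptor and caspase list 5 of 23 rose (21.7%) and 2 fell (8.7%, below the 10.1% over all tested genes). The survival gene Bcl2 fell from 215, 187 and 266 to 21.1, 60.8 and 22.6 (log2 fold change -2.80, limma adjusted p = 1e-06) and its relative Bcl2a1a by 1.14 on the log2 scale. Cflar, which blocks death receptor signals, rose by 1.41. Mcl1 was at 0.32, short of 1.5-fold, and Fas at 0.30 (limma adjusted p = 0.23).

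Glycolysis and low-oxygen response genes rose in most of their members. Of 24 tested members 19 rose (79.2%) and none fell, with a median log2 fold change of 1.44. Pgk1, a glycolytic kinase, was at 1242, 1309 and 1067 and at 6659, 7394 and 7874 (log2 fold change 2.60, limma adjusted p = 1.5e-12). Egln3, a prolyl hydroxylase induced by HIF, was at 132, 267 and 141 and at 1583, 1678 and 2017, and the mitophagy receptor gene Bnip3 at 347, 342 and 316 and at 2836, 2692 and 3002. Ldha, which makes lactate, rose by 1.62, and Hif1a by 0.61, a call lost with upper quartile scaling, array weights and without any 1 of 3 libraries. By contrast, the 86 tested nuclear genes of oxidative phosphorylation gave 5 rises and 1 fall (5.81% and 1.16%, below the shares over all genes). Their median log2 fold change was 0.16, and the groups did not overlap for 28 in the higher and 4 in the lower direction. Ndufb1-ps, annotated as a bidirectional promoter lncRNA, was at 0.78 and Ndufaf6 at -2.09. Mitochondrially encoded transcripts gave 1 rise and 1 fall of 16, the rRNA mt-Rnr1 falling by 0.72 on the log2 scale, a call lost without replicate 2 of IFN-γ + ACs, and the tRNA mt-Ti at 1.17, a rise lost without any 1 of 4 libraries. The mitochondrial share of the counts was lower with IFN-γ in all 3 libraries, as given above. The summed normalized counts themselves overlapped, at 417793 to 471587 with ACs and 391916 to 437673 with IFN-γ + ACs. Normalized library totals were larger with IFN-γ + ACs, which lowers the share. Of 80 cytosolic ribosomal protein genes 1 rose (1.25%), Rps27 (0.89), and the median was 0.18. The groups did not overlap for 35 of them in the higher direction and 2 in the lower. Over all tested genes the shares without overlap were 22.4% and 20.5%. Cholesterol and fatty acid synthesis genes gave 2 rises and 1 fall of 18, close to the shares over all genes, with Cyp51 at 1.00 and Mvd at 0.73, of which Mvd lost its call without any 1 of 5 libraries.

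Iron handling, lysosome and antimicrobial genes also rose more often than they fell. Of 13 iron genes 6 rose and 1 fell. Hmox1, which breaks down haem, was at 2168, 1722 and 1577 and at 10598, 12637 and 9577 (log2 fold change 2.59, limma adjusted p = 9.4e-11). Fth1, the ferritin heavy chain, was at 27704, 26023 and 21690 and at 79374, 86985 and 62394, the transferrin receptor gene Tfrc rose by 2.29 and the phagosomal iron transporter gene Slc11a1 by 1.49. Ncoa4, the receptor that carries ferritin to lysosomes, fell (-0.92). The iron exporter gene Slc40a1 was at 0.26 (limma adjusted p = 0.28). Lysosomal enzymes and membranes rose in 10 of 30 and fell in 2, the latter being Gusb (-0.76) and Man2b1 (-1.05). Lipa, the acid lipase, rose by 1.46, Gla by 1.37 and the cathepsin gene Ctsb by 1.01. Among 8 calprotectin and antimicrobial genes 4 rose and 1 fell, with S100a8 at 1.43, Lyz2 at 0.95 and the neutrophil collagenase gene Mmp8 at -1.33. Saa3, whose mean exceeded that of every gene named above in both groups, had a log2 fold change of 0.50, short of 1.5-fold. Lyz2 and the lysosomal genes are strongly expressed by macrophages, whose summed markers were higher in the same libraries. Lyz2 is itself a large part of that sum.

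The response to IFN-γ was then set beside that in the presence of E. coli, in 6 libraries that share none with the comparison above. Both comparisons came from 1 fit to 12 libraries with a shared estimate of the spread, so their calls are not independent. IFN-γ + E. coli + ACs against E. coli + ACs gave 994 rises (9.64% of those tested) and 978 falls (9.48%). With upper quartile scaling the split was 775 against 1343. Of the 1163 rises without E. coli, 530 (45.6%) were also called higher with E. coli, which is 53.3% of the rises there, and 981 (84.4%) had the same sign. Of the 1037 falls, 377 (36.4%) were also called lower, which is 38.5% of the falls there, and 902 (87.0%) had the same sign. The opposite call was made for 19 of the rises and 11 of the falls. The share with the same sign over all tested genes was not counted. The median log2 fold change of the rises was 1.06 without E. coli and 0.61 with it, and of the falls -1.14 and -0.60, where the members had been chosen on the first of these values.

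The lists were counted again in the presence of E. coli, where 9.64% of all tested genes rose and 9.48% fell. All 9 tested IRGs and 9 of 10 GBPs were called higher with E. coli too, but the change itself differed for 4 of the IRGs and 6 of the GBPs, for example Iigp1 (2.89 against 4.18, limma adjusted p of the difference 0.005) and Gbp5 (1.97 against 4.03, 0.005). Gbp2 had a log2 fold change of 3.36, Irf1 of 3.01, Cd274 of 2.59 and Cxcl9 of 6.21. For Gbp2, Irf1, Cd274 and Cxcl9 the difference between the IFN-γ changes did not pass the threshold, with adjusted p from 0.059 for Cxcl9 to 0.99 for Gbp2 from limma. Glycolysis and low-oxygen genes rose in 22 of 24 with E. coli, with Bnip3 at 3.72 and Vegfa, of the growth factor list, at 4.06. MHC class II genes rose in 6 of 10 with E. coli, with H2-Aa at 0.76 and H2-Ab1 at 1.44, both less than without it by the test of the difference (limma adjusted p = 0.00084 and 0.00088). Ifi200 and inflammasome genes were called higher in 3 of 18 and antiviral genes in 6 of 36 with 7 falls. The difference of these counts was not tested. Ptges (-0.72) and S100a8 (-1.19) fell with E. coli where they had risen without it.

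**Figure D4:**
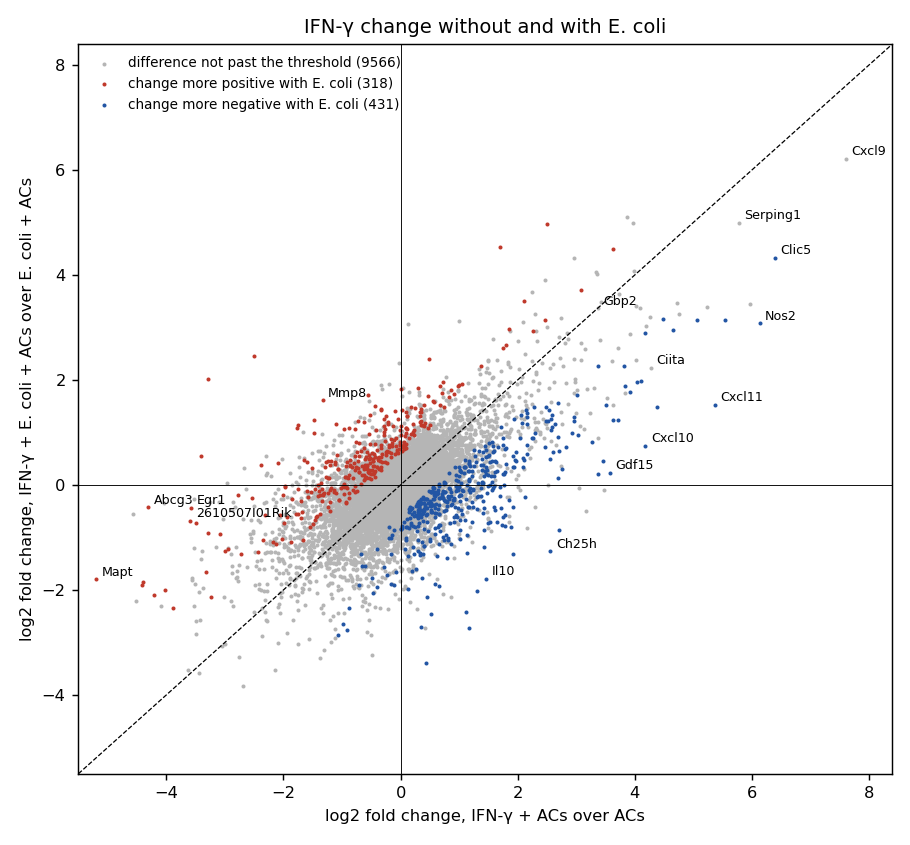
Log2 fold change for IFN-γ with E. coli (y) against that without E. coli (x), 1 point per tested gene, with the 318 genes whose IFN-γ change was more positive with E. coli in red, the 431 more negative in blue, and equality as a dashed line. Cxcl10 and Cxcl11 lie far below the line, Mmp8 above it, and Gbp2 on it.

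The test of the difference itself called 318 genes (3.08%) with a more positive and 431 (4.18%) with a more negative IFN-γ change in the presence of E. coli. Among the more negative ones, Cxcl10 was at 2707, 2167 and 2222 normalized counts with E. coli + ACs and at 3557, 3486 and 4906 with IFN-γ + E. coli + ACs. Cxcl11 was at 68.7, 76.9 and 60.7 and at 212, 169.8 and 221, a difference of -3.84 in log2 fold change (SE 0.36, limma adjusted p = 3e-06). For both chemokines E. coli + ACs stood far above ACs. Ch25h, which makes 25-hydroxycholesterol, was at 12.2, 13.1 and 13.1 with ACs and 60.7, 98.6 and 86.2 with IFN-γ + ACs, but at 129.8, 103 and 125 with E. coli + ACs and 51.3, 34.2 and 66.2 with both. Il10 followed the same pattern, at 48, 22.5 and 25.3 and 113, 71.1 and 75.9 without E. coli and at 273, 209 and 343 and 72.7, 64.7 and 99.3 with it. Each of these 2 rose with IFN-γ alone and fell when E. coli was present. Gdf15, a stress cytokine, rose by 3.57 without E. coli, and with E. coli its log2 fold change was 0.23 (limma adjusted p = 0.68).

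Among the more positive ones, Mmp8 was at 548, 534 and 485 with ACs and at 216, 228 and 179 with IFN-γ + ACs, and at 220.2, 200.3 and 159 with E. coli + ACs and 653, 535 and 578 with both, so a fall became a rise (difference 2.94, standard error 0.21, limma adjusted p = 1e-07). Abcg3 was at 11.7, 11.5 and 7.92 with E. coli + ACs, about as low as with IFN-γ + ACs, and at 5.70, 15.9 and 4.14 with both. Egr1 was at 107, 172 and 104 and at 96.9, 97.7 and 81.4, Mapt at 91.3, 77.7 and 63.3 and at 25.7, 17.1 and 22.1, and 2610507I01Rik at 36.8, 40.1 and 32.6 and at 12.8, 30.5 and 27.6. In Abcg3, Egr1 and Mapt every E. coli + ACs library was below every ACs library, and for none of the 4 genes did the change with IFN-γ in the presence of E. coli pass the threshold (limma adjusted p from 0.05 for Mapt to 0.64 for Abcg3). The ACs value of 2610507I01Rik was 36.6 in replicate 2, far below the other two. Leaving out single libraries moved the 318 to between 159 and 439 and the 431 to between 235 and 580.

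Among the 739 tested members of the lists, 51 had a more positive and 118 a more negative IFN-γ change with E. coli. Over all tested genes the shares were 3.08% and 4.18%. The lists were chosen with earlier results of these data known and hold many genes that rose without E. coli. For genes chosen in that way a negative difference is favoured. The more negative ones included enzymes of nitric oxide and itaconate metabolism, where 7 of 9 members differed in one direction or the other. Nos2 was at 671, 565 and 680 with E. coli + ACs and at 4509, 5899 and 5898 with IFN-γ + E. coli + ACs. That was 3.08 on the log2 scale against 6.13 without E. coli (limma adjusted p of the difference 5.8e-07). Acod1 was at 378, 298 and 321 and at 1404, 1041 and 1518 (1.98 against 4.10, 1.3e-05). Both thus still rose, from a higher level. In the iron list 8 of 13 differed, with Fth1 at 0.16 against 1.60 and Hmox1 at 1.11 against 2.59. Of the calprotectin and antimicrobial genes 6 of 8 differed, S100a8 being at 383, 254 and 355 and at 134, 114 and 189 in the presence of E. coli. Among antiviral genes, where 12 of 36 differed, Ifitm1 was at 3619, 4435 and 3709 and at 4951, 5393 and 5787 (0.46 against 3.46) and Isg15 at 0.06 against 1.39. Immediate early genes differed in 11 of 21, and Fos was at -0.17 against -0.96. Cd40 (0.05 against 1.56) and Traf1 (-0.44 against 1.43) no longer passed the test for IFN-γ when E. coli was present. Differences of the opposite sign were seen for Gbp4 (4.50 against 3.63), Nlrc5 (2.67 against 1.80) and Bnip3 (3.72 against 3.08), whose rises were larger with E. coli. Il5ra and Pira2, which had fallen, were at 0.25 and 0.30 with E. coli, and for both the difference passed the test. The mitochondrial genome transcripts had no member with a difference, of 16 tested.

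**Figure D5:**
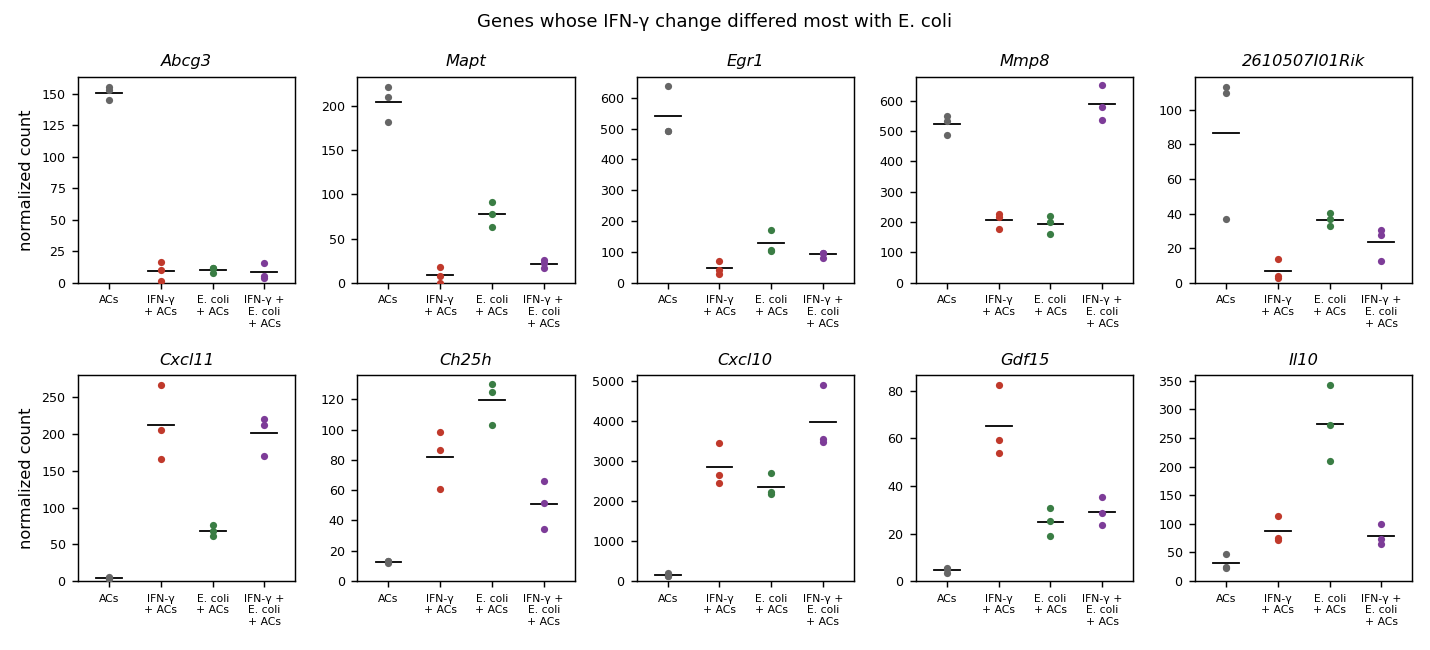
Normalized count (y, from 0) in each of the 3 libraries of the 4 groups of the Type 1 experiment, with the group mean as a black line, for the 5 genes with the most positive (top row) and the 5 with the most negative (bottom row) difference of the IFN-γ change with E. coli. Mmp8 falls with IFN-γ alone and rises with IFN-γ when E. coli is present, and Il10 does the reverse.

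Set directly against the other single stimulus, IFN-γ + ACs against E. coli + ACs gave 1009 transcripts (9.78%) that were higher with IFN-γ and 659 (6.39%) that were lower. This comparison shares its IFN-γ + ACs libraries with the first. The filter on low values used the ACs and IFN-γ + ACs libraries, so genes high only with E. coli + ACs were left out. The 2 counts are therefore not on a par. The largest differences in favour of IFN-γ were Cxcl9, at 17.6, 9.81 and 22 with E. coli + ACs (log2 fold change 7.40), Serping1, at 5.02, 1.64 and 8.80 (5.54), Kitl, at 0, 3.27 and 0 against 72.6, 68.8 and 61.6 (5.40), Ubd (5.11) and Serpina3f (4.60). Kitl encodes stem cell factor, a survival factor for mast cells. For Cxcl9 and Serping1 the E. coli + ACs libraries were thus as low as the ACs libraries. In favour of E. coli were Mapt (-3.80, with the same 0 in replicate 3), Asb2, at 198, 207 and 190 against 15.8, 10.3 and 22.6 (-3.60), U90926, at 250.3, 141 and 269 against 13.2, 13.8 and 34.9 (-3.44), the acute-phase gene Saa1 (-3.36) and the neutrophil chemokine Cxcl5, at 190, 195 and 184 against 11.9, 18.3 and 24.6 (-3.36). Adjusted p for these 10 were from 3.7e-12 for Cxcl9 to 0.00027 for Mapt, from limma.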

How the data were processed

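RNA was sequenced as 3′ ends by CEL-Seq2 from eosinophils of 18 cultures. Per the labels and the study's methods, the authors trimmed reads (cutadapt 1.10), aligned them to GRCm38 (TopHat2 2.1.0), counted uniquely aligned reads per gene (HTSeq 0.6.1) and normalized the counts with DESeq2 (1.26.0 in the processing notes). The methods also describe a STAR alignment, and which of the pipelines made the table is not given in the sources used here. The deposited values are a signal of gene counts divided by size factors. Whole reads could be recovered from them for 100.0% of values, within a tolerance of 0.01 on the scale of the normalized count.

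Genes with a mean of at least 10 over the 6 ACs and IFN-γ + ACs libraries were tested, and the same genes served for every comparison. Genes high only in the groups with E. coli were thus not tested. The test was limma 3.58.1 (R 4.3.3, trended empirical Bayes) on log2(normalized count + 1). It was fitted to the 12 libraries of the 4 groups of the Type 1 experiment, with Benjamini-Hochberg adjustment over 10315 genes. Fold changes of low genes depend on the pseudocount, which shrinks most of them, and on single values of 0, which can enlarge them. A call needed an adjusted p under 0.05 and a change of 1.5-fold. Alternatives were count tests on the recovered reads with DESeq2 1.42.0 or with edgeR 4.0.16, other filters, pseudocounts and scaling, array weights, a replicate block, the compared libraries only and each library left out. The tests ran first on simulated data with known changes. Of 54446 gene identifiers 54409 had a symbol.

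Named genes were the 12 largest rises and 12 largest falls among called genes whose groups did not overlap and whose higher group averaged 50 or more, the defining members of each list, its 3 members of largest absolute change, members that went against their list, and the 5 largest called genes in each direction of the other comparisons. Other members are named to account for small counts and were chosen after their values were seen. The comparison, the 36 gene lists and the 9 marker lists were chosen with earlier results of these data known, so their counts are descriptions. Promoters were matched by symbol to RefSeq windows of GRCm38.p6. The IL-4 experiment was not analysed here, and some genes are not reported here.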

Additional observations from a re-analysis of the deposited data

Results flagged for a closer look

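Each value here is a difference between the IFN-γ change with E. coli and that without it, in log2 fold change, past the threshold of the interaction test of limma. A positive value means that the change was more positive when E. coli was present. Such a difference was called for 72 of the 184 named genes, against 3.08% more positive and 4.18% more negative over all tested genes. The genes given below were chosen on the change without E. coli, which enters the difference, or on the difference itself. That choice alone favours negative values among the largest rises and positive values among the largest falls. The 21 given are the 5 largest in each direction and the members of the 12 largest rises and falls.

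Among the largest rises without E. coli the difference was negative for Clic5 (-2.07), Nos2 (-3.05), Calhm6 (-2.40), Cxcl11 (-3.84), Serpina3g (-1.92), Atf3 (-1.71) and Gm4841 (-1.31), all of which were also called higher with IFN-γ in the presence of E. coli. Cxcl10 (-3.44) was called higher in both settings as well. Ch25h (-3.82) and Il10 (-3.25) changed direction, and Gdf15 (-3.34) rose without E. coli and did not pass the test with it.

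Among the largest falls the difference was positive for Mapt (3.41), Btnl9 (2.51), Cbx8 (2.54), Abcg3 (3.89), Adra2a (2.1), Cbfa2t3 (2.02), Clec12a (1.55), 2610507I01Rik (2.90) and Egr1 (3.14). Of these, Btnl9, Cbx8, Adra2a, Cbfa2t3 and Clec12a were called lower in both settings. Mmp8 (2.94) fell with IFN-γ alone and rose with IFN-γ in the presence of E. coli.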

How the results depend on the processing

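Among the 184 named genes, no call of IFN-γ + ACs against ACs changed direction under any alternative. For other genes and comparisons only the counts of calls were compared. For IFN-γ + ACs against ACs the counts ranged from 963 to 1554 higher and from 698 to 1271 lower over all settings, and without single libraries from 1014 to 1132 and from 749 to 990. Upper quartile scaling gave 963 higher and 1271 lower and moved the median log2 fold change of all genes from -0.01 to -0.10. On the recovered reads edgeR gave 1147 and 1117, and DESeq2 gave 1169 higher. The difference of the IFN-γ changes was the least stable count. DESeq2 called 479 genes more positive with E. coli, against 318. Without single libraries the range was 159 to 439 for the more positive and 235 to 580 for the more negative genes. The more positive count was 188 without replicate 2 of ACs, 172 without replicate 3 of ACs, 159 without replicate 1 of E. coli + ACs and 211 without replicate 2 of IFN-γ + ACs. The more negative count was 254 without replicate 3 of ACs, 235 without replicate 1 of E. coli + ACs and 268 without replicate 2 of IFN-γ + ACs. The causes were not tested. With a replicate block IFN-γ + ACs against ACs gave 1165 and 1046 calls and the difference 313 and 424. Residuals of libraries with the same number had a mean correlation of 0.006 (-0.085 to 0.073), so the numbers were not taken to pair the libraries. Of 184 named genes 162 stayed on their side of the threshold in all alternatives. A pseudocount of 5 made the change of 21 of them smaller by over 1.5-fold. Replicate 3 of IFN-γ + ACs, with 2216917 reads, limits what can be seen of genes under its floor of 6.16 normalized counts.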
